A study of Mus musculus with 8 samples.

Results

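The genes described are 34 members of the heat shock response and the unfolded protein response, chosen by symbol from a list of chaperones, degradation factors and transcription factors, out of 22756 genes counted in each library. All 34 symbols were found. RNA-Seq was made from the distal lung of adult mice with a background of over 90% C57BL/6. Lungs were lavaged and dissected, CD45+ cells were removed with magnetic beads, and the labels give a purity of over 95% epCAM+ cells. The α7G mice carry the Chrna7-IRES-tauGFP allele, in which the α7 nicotinic receptor gene also expresses a green fluorescent reporter. The α7E260A:G mice carry the same reporter and, in addition, the E260A point mutation of the receptor (Chrna7-E260A-IRES-tauGFP), so the reporter allele was shared by all animals. Part of the mice of either genotype breathed side-stream cigarette smoke (CS), given on 5 days of each week over 4 months, and the rest were controls. Each of the 4 groups had 2 libraries, 1 from males and 1 from females, and how many mice went into a library was not given in the sources used here. The spread within a group was therefore the difference between a male and a female library, and p-values measure only the spread between these libraries.

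Cells answer misfolded protein by separate routes in separate compartments. In the cytosol, heat or damage releases the factor Hsf1, which induces the Hsp70, Hsp90, Hsp110 and small heat shock proteins, and in the mitochondrion the chaperonin Hspd1 works with its cap Hspe1. In the endoplasmic reticulum (ER), the sensors Ern1, Atf6 and Eif2ak3 are held inactive by the chaperone Hspa5 and, when released, act through spliced Xbp1, cleaved Atf6 and Atf4 to raise chaperones, ER-associated degradation (ERAD) and amino acid supply. Secretory lung epithelium, such as alveolar type II and club cells, makes large amounts of secreted protein and depends on the ER arm.

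The sequences that define these routes were read from the RefSeq promoters (build GRCm38.p6), in the 250 bases upstream of each start and on both strands, and are shown because each route is known by its own element. A promoter entry was found for 29 of the 34 genes, and Hsp90ab1, Hyou1, Hspa8, Hsp90aa1 and Manf had none. The heat shock element is an alternating run of GAA and TTC units that lie 2 bases apart. A pair of such units (GAANNTTC or TTCNNGAA) was held by 7 of the 29 genes, namely Hspa1a, Hspa1b, Hsph1, Hspb1, Hspd1, Hspe1 and Asns, and by 12.8% of 32851 promoters. A run of 3 units was held by Hspd1 and Hspe1 and by 0.466% of promoters, and each hit of 3 units contains hits of the pair. Counted by gene symbol, as the members were, the shares were 14.5% of 27025 symbols for the pair and 0.514% for 3 units. In the stretches below the matched bases are in capitals, and each is written 5′ to 3′ on the strand of its gene.
Hsph1, chr5:149636350-149636381, minus strand: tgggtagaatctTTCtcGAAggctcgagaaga
Hspa1a, chr17:34972241-34972272, minus strand: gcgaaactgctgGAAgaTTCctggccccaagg
Hspa1b, chr17:34959323-34959354, minus strand: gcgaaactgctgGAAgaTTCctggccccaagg
Hspb1, chr5:135887790-135887841, plus strand: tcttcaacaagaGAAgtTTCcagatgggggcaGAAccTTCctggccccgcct
Hspd1, chr1:55088047-55088088, minus strand: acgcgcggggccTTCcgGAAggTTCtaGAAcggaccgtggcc
Hspe1, chr1:55088047-55088088, plus strand: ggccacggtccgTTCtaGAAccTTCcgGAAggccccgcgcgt
The Hspd1 and Hspe1 stretches are the same bases of chromosome 1 read on opposite strands, since the 2 genes lie head to head around a shared promoter. The stretches of Hspa1a and Hspa1b, a duplicated gene pair, are identical.

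The ER stress element, to which Atf6 binds with the CCAAT factor NF-Y, is CCAAT, 9 bases of any kind, then CCACG. It was held by 8 of the 29 genes (Hspa5, Hsp90b1, Pdia6, Calr, Canx, Creld2, Dnajc3 and Syvn1) and by 0.113% of all promoters. Its shorter second form, ATTGG, 1 base, then CCACG, was held by Herpud1 and by 0.0304% of promoters. The element bound by Atf4 with a C/EBP partner (TGATGNAA) was held by Herpud1, Asns and Chac1 and by 3.45% of promoters. The unfolded protein response element TGACGTGG was held by none of the 29 genes and by 0.563% of promoters, which says only that these letters are not in the window searched. Counted by gene symbol, the shares were 0.13% for the ER stress element and 0.037% for its second form. They were 3.91% for the Atf4 element and 0.603% for the unfolded protein response element.
Hspa5, chr2:34772013-34772055, plus strand: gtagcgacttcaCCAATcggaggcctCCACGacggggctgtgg
Hsp90b1, chr10:86705626-86705668, minus strand: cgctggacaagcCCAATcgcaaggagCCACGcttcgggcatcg
Calr, chr8:84847063-84847105, minus strand: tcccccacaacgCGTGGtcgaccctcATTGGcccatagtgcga
Canx, chr11:50325788-50325830, minus strand: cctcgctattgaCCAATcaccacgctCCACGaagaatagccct
Creld2, chr15:88819508-88819550, plus strand: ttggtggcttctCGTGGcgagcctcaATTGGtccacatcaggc
Dnajc3, chr14:118937815-118937857, plus strand: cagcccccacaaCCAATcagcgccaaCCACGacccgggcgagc
Syvn1, chr19:6046520-6046562, plus strand: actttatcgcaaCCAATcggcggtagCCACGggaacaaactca
Herpud1, second form, chr8:94386365-94386399, plus strand: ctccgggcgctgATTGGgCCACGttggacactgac
Asns, Atf4 element, chr6:7693213-7693244, minus strand: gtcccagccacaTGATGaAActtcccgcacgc
Chac1, Atf4 element, chr2:119351037-119351068, plus strand: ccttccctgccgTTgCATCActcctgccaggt
In Calr, Creld2 and Chac1 the element lies on the opposite strand, so that its complement is read. Dnajb9 and Edem1, which are followed in the genotype comparison, held none of these elements in the window. Canx, also described there, held the ER stress element. A match is a description of the letters and not a measurement of binding.

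The 8 libraries held 8020726 to 10944100 counts on coding exons, with a median of 8728563.5, and 3 counts corresponded to 0.27 to 0.37 RPM (counts scaled to a library of 1e+06 counts). Of the 34 genes, 29 had a mean count of at least 200 and entered the fit across 7190 genes, and Hspa1a, Hspa1b, Hspb1, Trib3 and Chac1 lay under that minimum. Some members share sequence with other loci, so their counts may be incomplete: of the 50-base windows of their coding exons, 91.5% were found elsewhere in the genome for Hspa8, 84.8% for Hspa1a, 84.4% for Hspb1, 83.7% for Hsp90aa1, 82.3% for Hspa1b, 63.1% for Hspd1, 59.9% for Hspe1 and 24.6% for Dnajb9. For Hsp90ab1 the share was 7.9%, for Calr 1.2%, and for the other 24 genes it was 0.0%. The libraries also differed in how a gene's level depended on its coding (CDS) length. The slope of a library's log2 deviation on log2 CDS length ran from -0.243 in the male α7G CS library to 0.409 in the male α7E260A:G control library, and results are therefore also given with an offset per library that removes this slope.

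The labelled epithelium was checked against marker genes. Epithelial markers (Epcam, Cdh1, Krt8 and the rest of 5) summed to 1213 to 1886 RPM in α7G and 1002 to 1521 RPM in α7E260A:G libraries, and club cell markers (Scgb1a1, Scgb3a2, Scgb3a1 and the rest of 5) to 48710 to 78680 and 18710 to 51720 RPM. Alveolar type II markers (Sftpc, Sftpb, Sftpa1 and the rest of 9) summed to 20220 to 30930 RPM in α7G and 4796 to 14970 RPM in α7E260A:G, with all 9 lower in α7E260A:G by their means. Alveolar macrophage markers (Marco, Siglec5, Mrc1 and others, 15 of 16 found) summed to 14610 to 22620 RPM in α7G and 31180 to 51250 RPM in α7E260A:G, with all 15 higher. Ptprc, which encodes CD45, was still at 6838 to 16089 counts per library after the depletion of CD45+ cells. In α7G and α7E260A:G, endothelial markers (Pecam1, Cdh5, Kdr and the rest of 5) summed to 512.5 to 611.1 and 253.5 to 741.2 RPM, and mesenchymal markers (Col1a1, Col1a2, Col3a1 and the rest of 5) 743.8 to 864.2 and 393.7 to 2169 RPM. Plasma cell markers (Igj, 2010001M09Rik, Sdc1 and others, 7 of 8 found) summed to 5743 RPM in the female α7E260A:G control library and 462.4 to 1068 RPM in the other 7. Igj alone stood at 5424 RPM in that library. 2010001M09Rik was also highest there (196.8 RPM), Sdc1 was lowest there (44.4 RPM), and not every other marker of the list was highest there. Immediate early genes, which mark cell handling (Fos, Fosb, Jun and the rest of 8), summed to 972.7 to 2418 RPM in α7G and 798.0 to 1308 RPM in α7E260A:G. No marker of these lists was at or under 3 counts in all libraries. The genotypes did not overlap in the sums of the alveolar type II and alveolar macrophage lists and overlapped in the others. In bulk RNA fewer cells of a type and less RNA per cell cannot be told apart, and the part of the lists in the results given next was not tested.

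**Figure D1:**
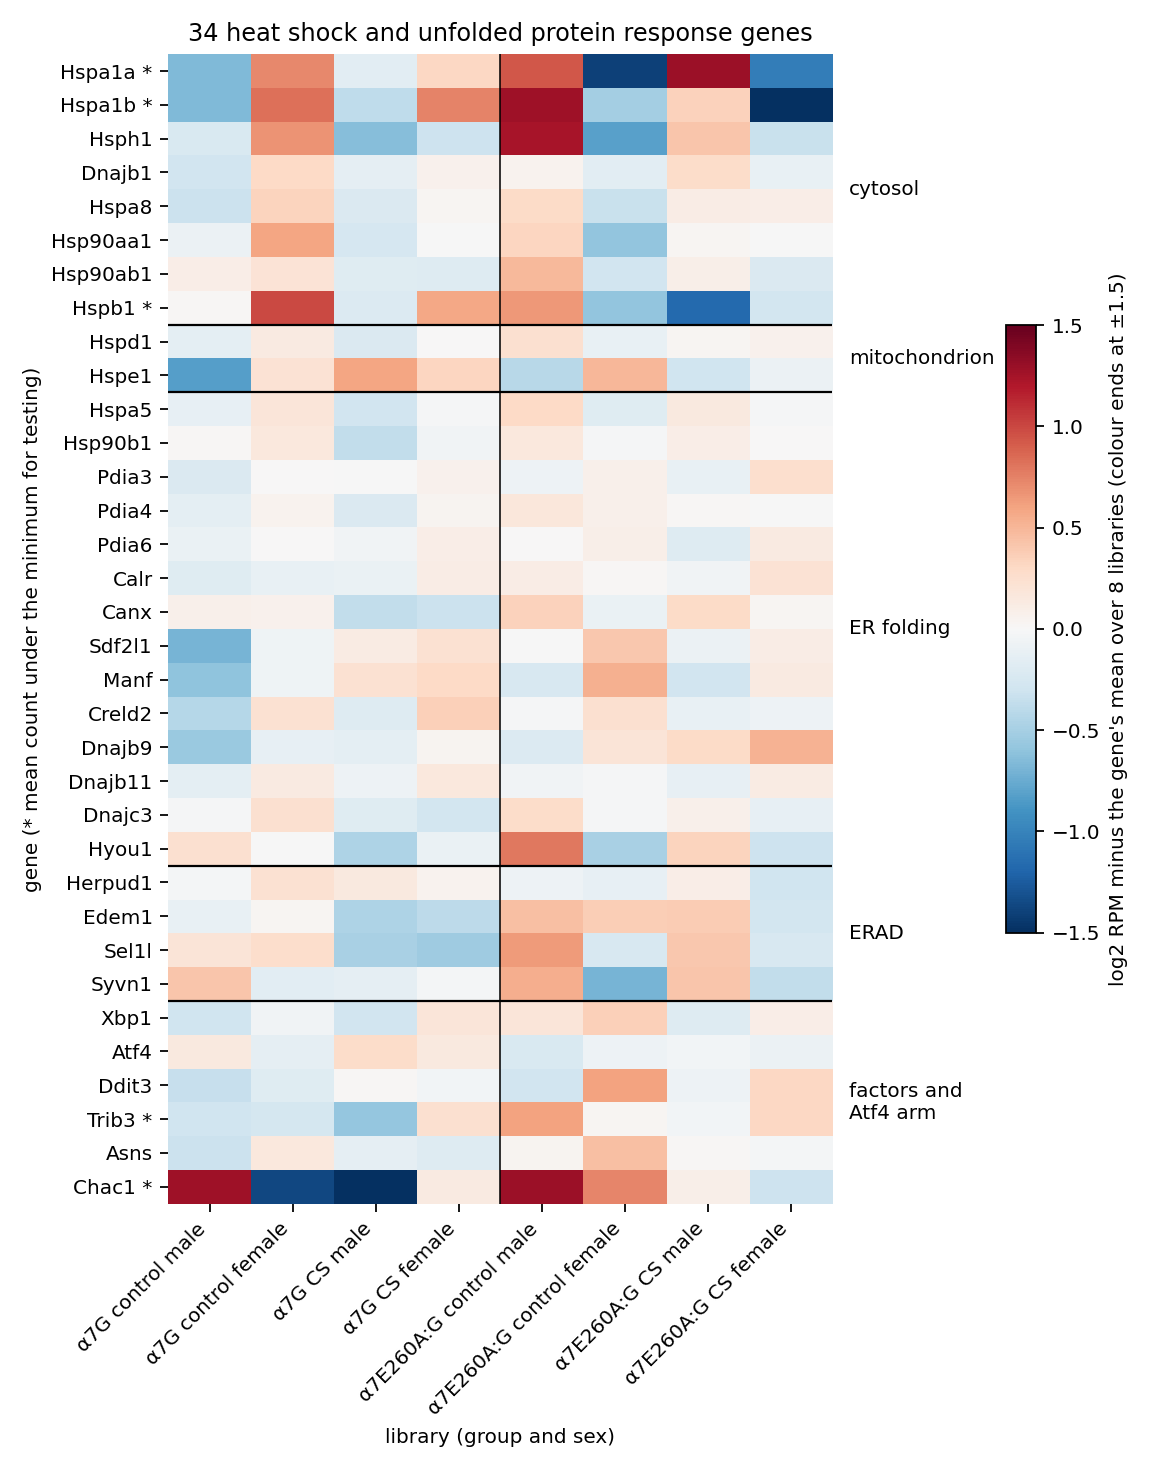
Heat map of the 34 genes (rows, by compartment) in the 8 libraries (columns, by group and sex), with colour showing log2 RPM minus the gene's mean over the 8 libraries, from blue (lower) to red (higher). Most cytosolic genes at the top are red in the male α7E260A:G and female α7G controls and blue in the female α7E260A:G control, most ER rows are paler, and an asterisk marks the 5 genes under the minimum for testing.

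The 34 genes spanned a wide range of levels. Per kb of CDS, the cytosolic Hsp90ab1 stood highest at a mean of 1278 RPM per kb, followed by the lectin chaperone Calr at 935, the ER Hsp90 paralogue Hsp90b1 at 749, the disulphide isomerase Pdia3 at 707 and Hspa5 at 635 RPM per kb. The lowest were Hspa1a at 2.27, the pseudokinase Trib3 at 2.87, the glutathione-degrading enzyme Chac1 at 3.12 and Hspa1b at 4.51 RPM per kb, all of them genes that are strongly inducible by stress. For Hspa1a and Hspa1b 84.8% and 82.3% of the windows were found elsewhere in the genome, so their counts, and with them these levels, may be incomplete. Variation between libraries also differed. Of the tested genes Hsph1, the Hsp110 exchange factor of Hsp70, had the largest coefficient of variation over the 8 libraries, 54.7%, which was above that of 94.95% of the 7190 genes tested. At the other end Pdia6 had 7.52%, with 1.1% of the genes below it, Pdia4 8.32% and the Hspa5 co-chaperone Dnajb11 8.65%. The genes of low count reached 65.7% (Chac1), 61.5% (Hspa1a) and 59.8% (Hspa1b), where counting error contributes more.

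In the cytosolic genes single libraries stood apart, and these did not follow genotype or exposure. Hsph1 (ENSMUSG00000029657.8, chr5:150416862-150438951 in mm9, as for all gene positions that follow) was at 230.0 RPM in the male and 428.4 RPM in the female control library of α7G, and at 172.7 and 216.3 RPM after CS. In α7E260A:G it was at 635.9 RPM in the male and 152.8 RPM in the female control, and at 360.3 and 213.7 RPM after CS. The male α7E260A:G control was the highest and the female control of the same group the lowest, a range of 4.16-fold. On length-corrected RPM the male α7G control was the lowest (184.8 against 194.7 in the female α7E260A:G control). Hspa1b (chr17:35093381-35096183), an inducible Hsp70, was at 4.57, 12.9, 5.59 and 12.2 RPM in α7G (male control, female control, male CS, female CS) and at 17.6, 5.12, 9.23 and 2.32 RPM in α7E260A:G. Its counts were low, between 21 and 144. Its neighbour Hspa1a (chr17:35106144-35109069) was at 2.29, 5.98, 3.26 and 4.51 RPM in α7G and at 6.95, 1.37, 8.85 and 1.77 RPM in α7E260A:G in the same order. In both Hsp70 genes the female was above the male library in α7G and below it in α7E260A:G, at each exposure. The genotypes overlapped for all of them.

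The remaining cytosolic genes had smaller ranges. The major Hsp90 of the inducible type, Hsp90aa1, was at 229.8, 367.7, 206.0 and 244.0 RPM in α7G and 306.8, 163.0, 249.6 and 244.4 RPM in α7E260A:G, in the order male control, female control, male CS and female CS. The constitutive Hsp70 gene Hspa8 ranged from 670.1 RPM in the female α7E260A:G control to 1066 RPM in the female α7G control, and the small heat shock protein Hspb1 from 5.74 RPM in the male α7E260A:G CS to 25.4 RPM in the female α7G control library. The female α7G control was the highest library for all 3 of these genes. Hsp90ab1 ranged from 2240 to 3828 RPM and the Hsp40 co-chaperone Dnajb1 from 81.9 to 123.7 RPM. Summed over the 8 cytosolic genes, the male α7E260A:G control had 5946 RPM, the female α7G control 5183 RPM and the female α7E260A:G control 3330 RPM, and the other 5 libraries lay between 3626 and 4563 RPM. Of the 5 cytosolic genes tested, 4 (Hsph1, Hspa8, Hsp90aa1 and Hsp90ab1) had their lowest RPM in the female α7E260A:G control. This depended on the scale, and on length-corrected RPM all 4 were lowest in the male α7G control.

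**Figure D2:**
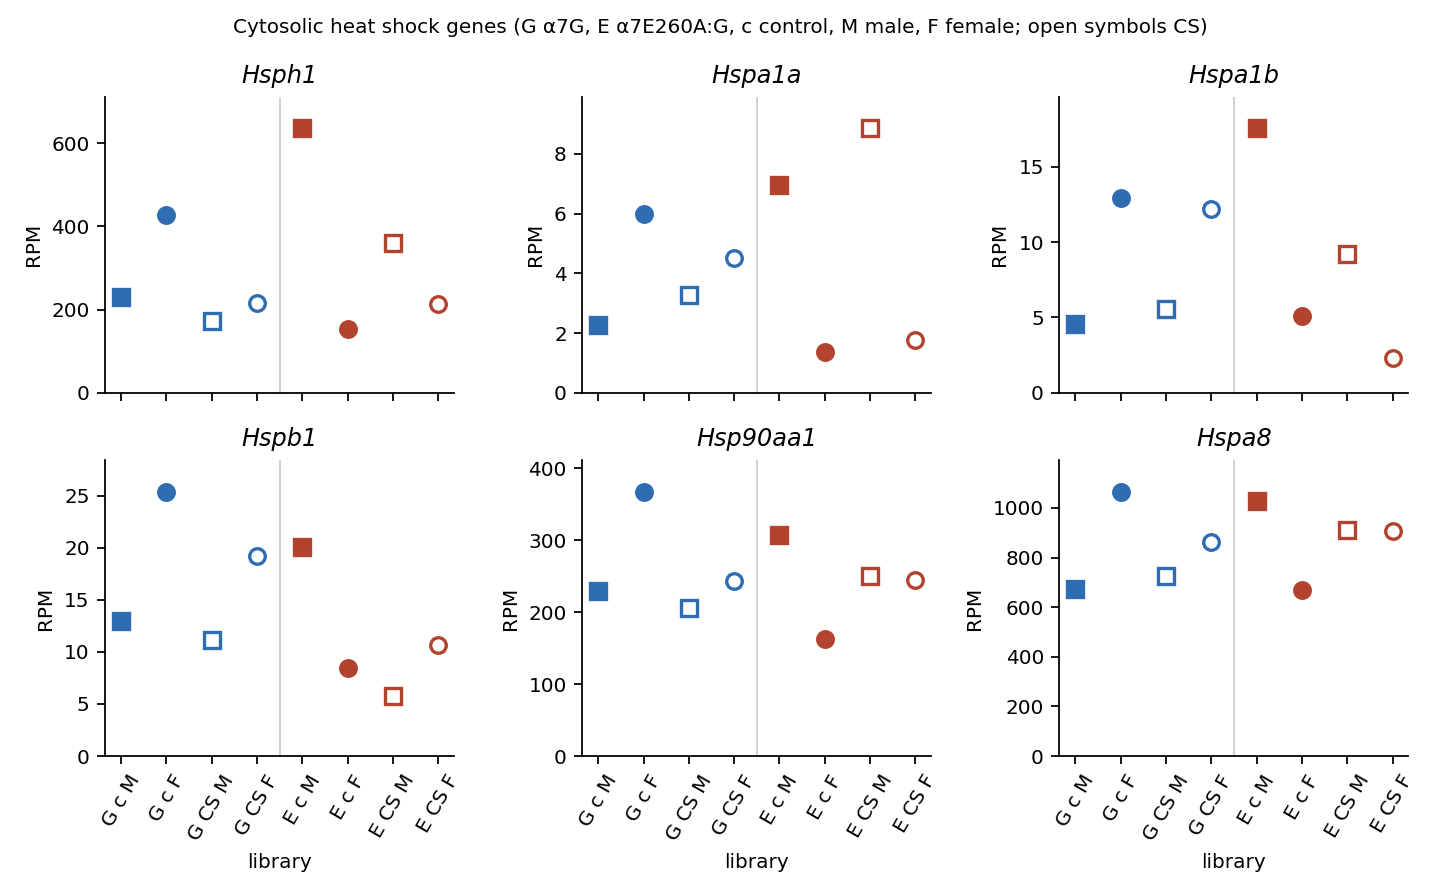
RPM (y axis, from 0, a scale per gene) of 6 cytosolic heat shock genes in each of the 8 libraries (x axis), with squares for male, circles for female, blue for α7G, red for α7E260A:G and open symbols for CS. Hsph1 runs from 152.8 to 635.9 RPM, and the control libraries of the 2 sexes stand in opposite order in the 2 genotypes.

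Beside the genotype effect over all libraries, its direction was compared between the sexes. In both male pairs (α7E260A:G against α7G at the same exposure) the value was higher in α7E260A:G and in both female pairs lower for 7 of the 34 genes, namely Hspa1a, Hspa1b, Hsph1, Dnajb1, Hsp90ab1, the ER Hsp110 relative Hyou1 and the ERAD ligase Syvn1. This pattern was shown by 16.2% of the 7190 genes tested, and 5 of the 29 members tested were among them, so the share is near the background. On TMM-scaled RPM the tested members with this pattern were Dnajb1, Hyou1 and Syvn1 (10.8% of genes), and on length-corrected RPM these 3 and Herpud1 (8.36% of genes), so Hsph1 and Hsp90ab1 showed it on neither. The opposite pattern was shown by 0 members and 6.26% of genes. A fit with a cell for each genotype and sex, added after the data were examined, gave for Hsph1 a log2 change in α7E260A:G of 1.21 ± 0.30 (SE) in males and -0.54 ± 0.30 in females. Their difference, female minus male, was -1.75 ± 0.42, with an unadjusted p of 0.00326 and an adjusted p of 0.231 (edgeR, Benjamini-Hochberg over 7190 genes). With Hyou1 (-0.76 ± 0.29, adjusted p = 0.233), Hsph1 was 1 of 2 members with an unadjusted p under 0.05 for this difference, against 20.5% of all genes, and 0.0% of genes passed the adjusted threshold of 0.05. With the length offset the difference was -1.45 ± 0.35 for Hsph1, -0.36 ± 0.22 for Hyou1 (unadjusted p = 0.139) and -0.74 ± 0.22 for Dnajb1 (unadjusted p = 0.00677, edgeR), and without it the members' differences had an r of -0.74 with log2 CDS length. Within the male libraries alone, 0 of 29 members passed the adjusted threshold (2.59% of genes), and with the length offset Hsph1 (0.99 ± 0.25, adjusted p = 0.0471) and Dnajb9 (0.66 ± 0.16, adjusted p = 0.0475) did, as did 5.41% of genes. Within the female libraries alone, 0 members passed without the offset (0.223% of genes) and 0 with it (6.2% of genes).

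The 2 mitochondrial genes, which share a promoter region, had unlike ranges on RPM. The chaperonin Hspd1 (chr1:55134679-55145087) stayed between 120.1 and 164.9 RPM, a range of 1.37-fold. Its cap Hspe1 (chr1:55144976-55148151), with a CDS of 306 bases, was at 16.6, 34.2, 44.3 and 36.9 RPM in α7G and 22.2, 41.8, 23.9 and 27.8 RPM in α7E260A:G, in the order male control, female control, male CS and female CS. The highest and lowest values of Hspe1 were the 2 male α7G libraries, and those 2 libraries also differ in the length slope (0.228 and -0.243). On length-corrected RPM Hspe1 ran from 22.4 in the female α7E260A:G CS to 37.4 in the female α7G control library. Hspd1 ran from 111.7 to 163.0 on that scale, so the ranges were less unlike.

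The abundant ER chaperones had narrow ranges. Hspa5 (chr2:34627490-34632051), the ER Hsp70 that holds the stress sensors, was at 1138, 1397, 1012 and 1217 RPM in α7G and 1527, 1092, 1371 and 1221 RPM in α7E260A:G, in the order male control, female control, male CS and female CS. Hsp90b1 was at 1811, 2002, 1392 and 1731 RPM in α7G and 2001, 1765, 1914 and 1800 RPM in α7E260A:G. Both were lowest in the male α7G CS library on RPM, and the genotypes overlapped. On length-corrected RPM the male α7G control was lowest (974.2 against 1065 in male α7G CS for Hspa5, 1477 against 1542 for Hsp90b1). Of the other ER folding genes, the disulphide isomerases Pdia4 and Pdia6 ranged from 317.7 to 414.0 and from 384.9 to 481.4 RPM, Calr from 1022 to 1348 RPM and Dnajc3 from 113.6 to 166.2 RPM. Hyou1, which exchanges nucleotide on Hspa5, ranged more widely, from 118.5 RPM in the female to 286.7 RPM in the male α7E260A:G control. In ERAD, Herpud1 ranged from 187.1 to 270.0 RPM and Syvn1 from 42.7 RPM in the female to 101.0 RPM in the male α7E260A:G control, and Atf4 ranged from 248.3 to 351.9 RPM. For Hyou1 and Syvn1, as for Hsph1, the 2 controls of α7E260A:G were thus the extremes of the 8 libraries on RPM. On length-corrected RPM, of these genes Syvn1 alone kept both extremes. Hyou1 was then lowest in the male α7G CS library (141.6 against 154.8 in the female α7E260A:G control).

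Over both exposures, the genotype comparison asked whether the receptor mutation goes with another level of these genes. The ER and ERAD genes were mostly above 0 in α7E260A:G without passing the test across genes. Of the 29 members 25 had a log2 change above 0 and 4 below it, with a median of 0.18 against 0.04 over the 7190 genes, of which 4036 were above and 3154 below 0. Without the male α7G control the median was 0.09 and 4 members had the other sign, and with library size scaling it was 0.11. All 14 ER folding genes were above 0, as were 3 of 4 ERAD genes, 3 of the 4 tested factors and Atf4-arm genes, 4 of 5 cytosolic and 1 of 2 mitochondrial genes. None of the 29 passed the adjusted threshold in edgeR (0.0834% of genes did) or in DESeq2, and 2 had an unadjusted p under 0.05 (11.9% of genes did). No member separated the 4 α7E260A:G from the 4 α7G libraries upward (2.99% of genes did) or downward (5.15% did). On TMM-scaled RPM Canx separated them upward, as did 4.44% of genes, and on length-corrected RPM Canx, Ddit3 and Dnajb9 did, with 7.02% of genes.

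The 2 members with an unadjusted p under 0.05 were the ERAD mannosidase-like factor Edem1, which extracts misfolded glycoproteins from folding cycles, and the membrane lectin chaperone Canx. Edem1 (ENSMUSG00000030104.6, chr6:108778635-108809350) was at 126.9, 139.8, 99.5 and 104.5 RPM in α7G and at 188.0, 177.5, 178.7 and 113.4 RPM in α7E260A:G, in the order male control, female control, male CS and female CS. It was higher in α7E260A:G in each of the 4 pairs matched for sex and exposure, and the groups overlapped through the female α7E260A:G CS library. The log2 change was 0.54 ± 0.17 (edgeR, unadjusted p = 0.0132, adjusted p = 0.227). Canx (chr11:50107969-50139175) was at 604.8, 601.6, 445.6 and 458.6 RPM in α7G and 730.6, 535.1, 698.4 and 586.1 RPM in α7E260A:G. The female control pair went the other way on RPM, but not on TMM-scaled RPM (606.4 in α7E260A:G against 582.4 in α7G). The log2 change of Canx was 0.34 ± 0.14 (adjusted p = 0.387).

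Dnajb9, an ER-resident Hsp40 co-chaperone that also represses the sensor Ern1, was followed through all groups. Dnajb9 (ENSMUSG00000014905.3, chr12:45306884-45311055) was at 49.0 and 66.4 RPM in the male and female α7G controls and at 65.2 and 74.1 RPM after CS. In α7E260A:G it was at 62.5 and 82.8 RPM in the controls and 88.2 and 103.4 RPM after CS. It was higher in α7E260A:G in 4 of 4 pairs, higher after CS in 4 of 4 pairs and higher in the female library in each of the 4 groups, and yet the 4 α7E260A:G values overlapped the 4 α7G values. On length-corrected RPM the genotype direction held in 4 of 4 pairs, and the directions for CS and sex did not hold throughout. There Dnajb9 was lower after CS in both α7G pairs (56.3 to 54.2 in males and 68.0 to 65.3 in females). It was also lower in the female library of both α7E260A:G groups (72.4 against 81.7 in controls and 94.8 against 96.9 after CS). Its mean was 84.2 ± 16.9 RPM in α7E260A:G and 63.7 ± 10.6 RPM in α7G (SD, n = 4 each). The log2 change for genotype was 0.48 ± 0.24 (adjusted p = 0.511). With the length offset it was 0.49 ± 0.12 and passed the threshold (adjusted p = 0.0481, edgeR), where 6.62% of all genes passed. With the offset and sex as a block it was 0.50 ± 0.12 (adjusted p = 0.0344, with 9.37% of genes passing), and with the offset and without the male α7E260A:G control Edem1 passed as well (10.2% of genes). Without the offset Dnajb9 passed under none of the alternatives run, and DESeq2 gave an adjusted p of 0.428, so the call rests on the offset.

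**Figure D3:**
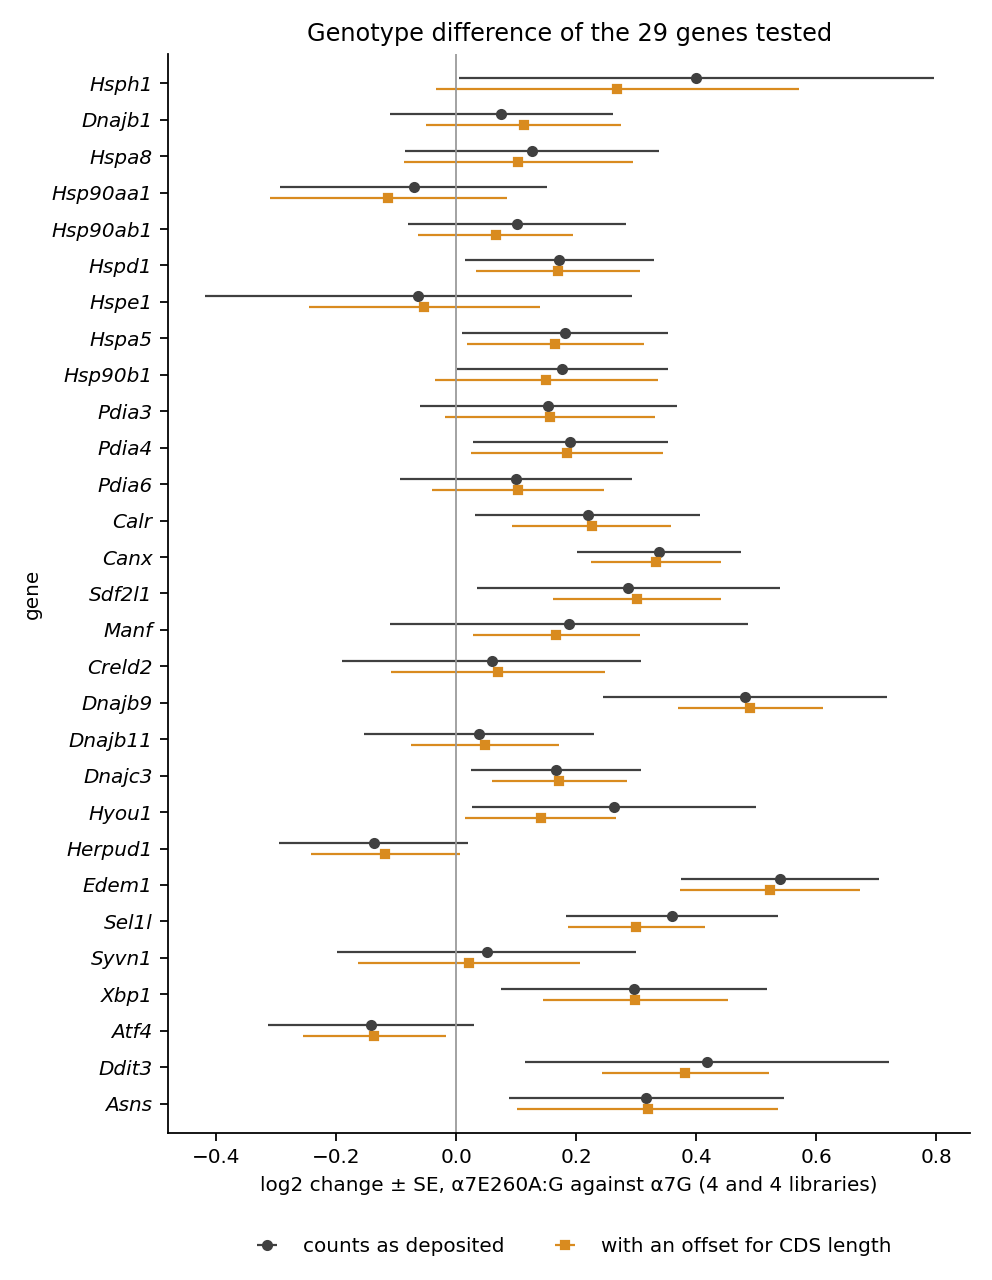
Log2 change between α7E260A:G and α7G libraries (x axis, points with bars of 1 SE, 4 and 4 libraries) for each of the 29 genes tested (y axis), from the counts as deposited (grey circles) and with an offset for CDS length (orange squares). Most points lie right of 0, Edem1 at 0.54 and Dnajb9 at 0.48, and the offset shortens the bar of Dnajb9 from 0.24 to 0.12.

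In all, 5 members were higher in α7E260A:G in all 4 pairs, against 7.84% of the genes tested: Dnajb9, Edem1, Calr, the asparagine synthetase Asns and Trib3, of which Trib3 was not in the fit. The lectin chaperone Calr had 1226 ± 97.4 RPM in α7E260A:G and 1108 ± 99.6 RPM in α7G (SD, n = 4 each), and Asns 38.2 ± 6.22 and 32.3 ± 4.69 RPM. A single member, the stress-inducible ERAD scaffold Herpud1, was lower in α7E260A:G in all 4 pairs (15.0% of genes were), at 216.0 ± 24.5 against 247.6 ± 19.2 RPM. These counts are on RPM. On length-corrected RPM Herpud1 was higher in α7E260A:G in both male pairs (233.3 against 223.1 in controls and 242.9 against 241.2 after CS). On TMM-scaled RPM Calr was lower in α7E260A:G in the male CS pair (1052 against 1089). For no member did the exact permutation test over the 70 arrangements of the libraries reach its smallest two-sided value of 0.0286 for genotype, and it gave 0.0857 for Edem1, 0.114 for Dnajb9 and 0.114 for Herpud1.

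Of the factors and the Atf4 arm, 3 of 4 tested genes were above 0 between genotypes and none passed. Atf4 itself had a log2 change of -0.14 ± 0.17 and Xbp1, whose spliced form drives ER expansion, 0.30 ± 0.22. The pro-apoptotic factor Ddit3 had 0.42 ± 0.30 and Asns 0.32 ± 0.23, with adjusted p-values of 0.706 to 0.870 (edgeR). Ddit3 was at 18.9, 21.2, 24.4 and 23.5 RPM in α7G and 19.7, 36.7, 22.8 and 29.8 RPM in α7E260A:G, so that the 2 female α7E260A:G libraries were above all others on RPM. On length-corrected RPM the male α7E260A:G control and CS libraries were at 28.3 and 26.4, and the female ones at 29.3 and 26.0. These then lay above the α7G libraries, which ran from 19.1 to 23.4. Trib3 lay between 1.98 and 4.51 RPM and Chac1 between 0.466 and 4.02 RPM, with 4 to 33 counts for Chac1. In a fit with a lower count filter that kept these genes, the genotype log2 changes were 0.52 ± 0.36 for Trib3, 0.57 ± 0.65 for Chac1, 0.21 ± 0.62 for Hspa1a, -0.13 ± 0.56 for Hspa1b and -0.60 ± 0.39 for Hspb1, with adjusted p-values from 0.659 to 0.972.

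The female α7E260A:G control library had the highest RPM of Manf, Sdf2l1, Xbp1, Ddit3 and Asns. Its plasma cell markers stood at 5743 RPM, with Igj at 5424 RPM, and its length slope was -0.239. Manf, a secreted ER stress protein, was at 249.4 RPM there and between 113.9 and 212.1 RPM elsewhere, and Xbp1 at 459.4 RPM against 291.7 to 408.5 RPM. Sdf2l1, a small partner of Hspa5 and Dnajb11, was at 74.7 RPM there and between 34.6 and 65.8 RPM elsewhere. On length-corrected RPM Sdf2l1 was higher in the male α7E260A:G control (73.3 against 65.3). The female control stayed highest for Manf, Xbp1 and Asns, and by little for Ddit3 (29.3 against 28.3 in the male α7E260A:G control). The part of the plasma cell markers in these values was not tested.

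The effect of CS was first compared over both genotypes. No member passed the adjusted threshold in edgeR (0.0% of genes did) or in DESeq2, and 0 members had an unadjusted p under 0.05 (7.58% of genes did). The members' median log2 change was -0.04, with 13 above and 16 below 0, against a median of 0.00 over all genes. No member separated the 4 CS from the 4 control libraries upward (1.66% of genes did) or downward (0.417% did). Dnajb9 was higher after CS in all 4 pairs on RPM, which 13.1% of genes were, but its log2 change with CS in α7G went from 0.39 ± 0.34 to -0.04 ± 0.17 with the length offset. The disulphide isomerase Pdia4, the eIF2α kinase inhibitor Dnajc3 and Edem1 were lower in all 4 pairs on RPM, which 12.1% of genes were. For Pdia4 this did not hold on TMM-scaled RPM, where both α7G pairs were higher after CS (306.4 to 319.0 in males and 369.2 to 389.7 in females), and its log2 change in α7G was 0.08 ± 0.23. Dnajc3 had 126.6 ± 13.4 RPM after CS and 150.0 ± 16.7 RPM in controls (SD, n = 4 each), a log2 change of -0.23 ± 0.14 (adjusted p = 0.669).

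Within α7G, short members mostly had a log2 change with CS above 0 and long members below 0. No member passed the adjusted threshold in edgeR (0.0% of genes did) or in DESeq2, and 1, Sel1l, had an unadjusted p under 0.05 (6.68% of genes did). Sel1l, the adaptor of the Syvn1 ligase complex in ERAD, was at 112.2 and 118.1 RPM in the male and female α7G controls and at 70.1 and 67.9 RPM after CS, while in α7E260A:G it was at 153.2 and 83.1 RPM in controls and 129.5 and 83.3 RPM after CS. The 2 α7G groups did not overlap and the 2 α7E260A:G groups did. Its log2 change in α7G was -0.62 ± 0.25 (edgeR, unadjusted p = 0.0428, adjusted p = 0.589) and -0.39 ± 0.16 with the length offset. In a fit of the 4 α7G libraries alone Sel1l passed (adjusted p = 0.0408), where 16.0% of all genes passed.

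At the other end were Hspe1 (0.78 ± 0.51), Manf (0.69 ± 0.42) and Sdf2l1 (0.64 ± 0.36), with adjusted p = 0.589 for each. Over the 29 members, the log2 change with CS in α7G had a Pearson r of -0.87 with log2 CDS length and a slope of -0.40 per doubling, against -0.75 and -0.37 over the 7190 genes. These correlations are across genes that share the same libraries and are given as a description. With the offset the slope of the members was -0.04, and the changes were -0.01 ± 0.27 for Hspe1, 0.29 ± 0.20 for Manf and 0.21 ± 0.20 for Sdf2l1. With the offset, 11 of the 29 members had the other sign.

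Within α7E260A:G, no member passed the adjusted threshold in edgeR (0.0% of genes did) or in DESeq2, and 0 had an unadjusted p under 0.05 (1.7% of genes did). Of the 29 members 25 had a log2 change below 0, with a median of -0.16 against -0.04 over all genes, of which 4007 of 7190 were below 0. The female α7E260A:G control library had plasma cell markers at 5743 RPM, with Igj at 5424 RPM. Without that library the median was 0.0 and 14 of the 29 members had the other sign. The lowest were Hsph1 at -0.46 ± 0.56, Hspe1 at -0.45 ± 0.51 and Edem1 at -0.44 ± 0.23, and the highest was Dnajb9 at 0.29 ± 0.33. Here the members' changes had an r of 0.07 with log2 CDS length.

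Whether the change with CS differed between the 2 genotypes was tested with an interaction term. No member passed in edgeR (0.0% of genes did) or in DESeq2, and 0 had an unadjusted p under 0.05 (1.42% of genes did). The 4 members Manf, Sdf2l1, Xbp1 and the ER chaperone Creld2 were higher after CS in both α7G pairs and lower in both α7E260A:G pairs, which 2.18% of the tested genes were, and 0 members showed the opposite, which 11.6% of genes did. Manf was at 113.9 and 165.4 RPM in the male and female α7G controls and at 202.5 and 212.1 RPM after CS, and in α7E260A:G at 146.0 and 249.4 RPM in controls and 141.6 and 189.5 RPM after CS. The α7G groups did not overlap, and the male α7E260A:G pair differed by little. Xbp1 was at 291.7 and 347.0 RPM in α7G controls, 295.3 and 408.5 RPM after CS, 407.3 and 459.4 RPM in α7E260A:G controls and 314.7 and 385.5 RPM after CS. Sdf2l1 was at 34.6 and 53.8, then 61.2 and 65.8 RPM in α7G, and at 55.9 and 74.7, then 53.1 and 61.0 RPM in α7E260A:G, in the same order. Creld2 was at 60.9 and 95.2, then 71.5 and 104.8 RPM in α7G, and at 80.5 and 96.3, then 75.3 and 77.1 RPM in α7E260A:G. The male α7G pair of Xbp1 and the male α7E260A:G pairs of Sdf2l1 and Creld2 were close together. The interaction, α7E260A:G minus α7G, was -1.07 for Manf (unadjusted p = 0.117), -0.94 for Sdf2l1 (0.103), -0.66 for Xbp1 (0.179) and -0.61 for Creld2 (0.258), each with an adjusted p of 0.997 (edgeR). With the length offset it was -0.67 for Manf (unadjusted p = 0.0397), -0.54 for Sdf2l1, -0.55 for Xbp1 and -0.46 for Creld2, each with an adjusted p of 0.982. Without the offset the members' interaction values had an r of 0.80 with log2 CDS length. On length-corrected RPM the pattern was shown by Manf, Sdf2l1 and Creld2 and also by Pdia4 and Pdia6, but not by Xbp1, and by 4.67% of genes. With the offset 0 members passed in any of the CS comparisons, in the interaction or between the sexes.

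**Figure D4:**
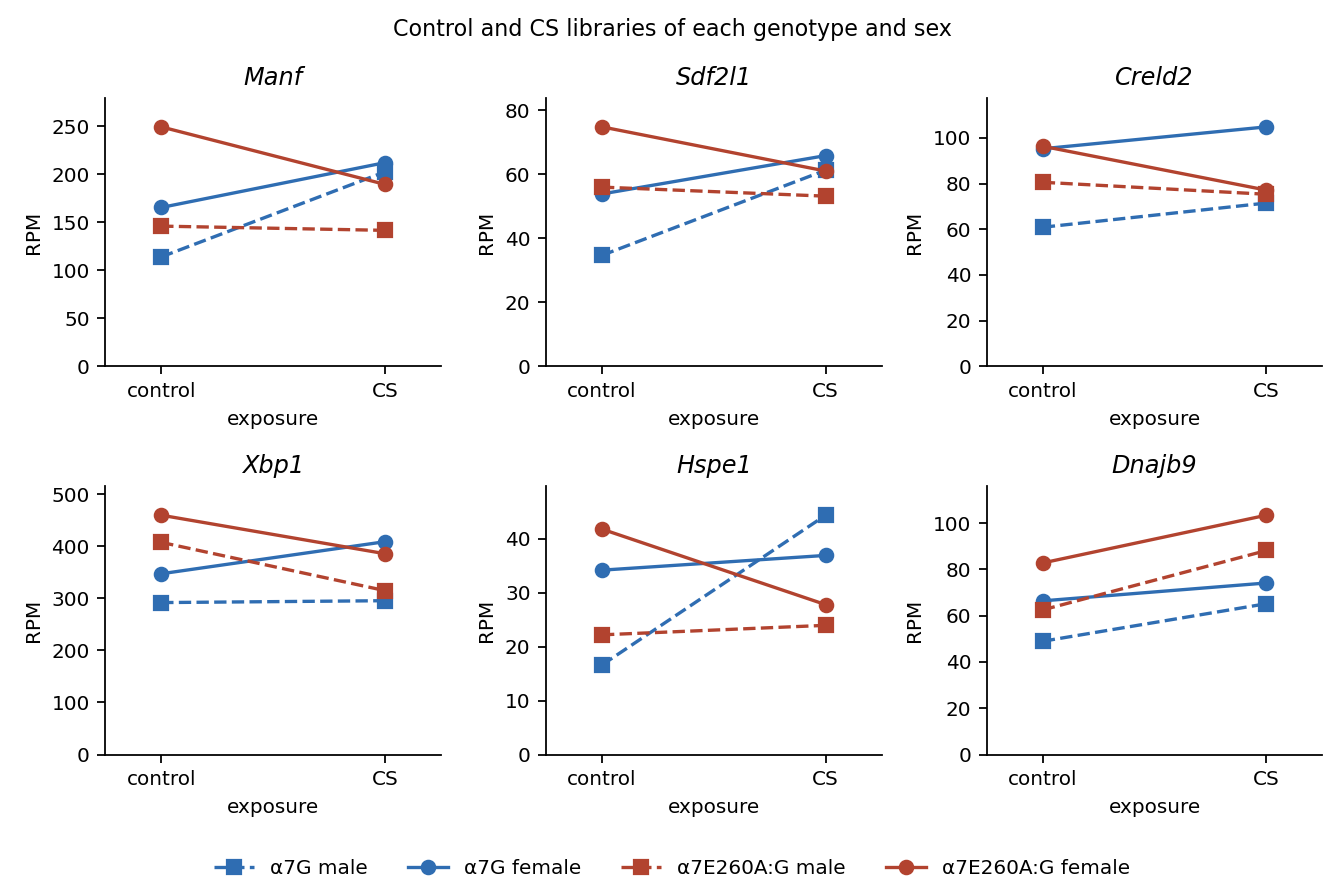
RPM (y axis, from 0, a scale per gene) in the control and CS library (x axis) of each sex and genotype, with blue for α7G, red for α7E260A:G, dashed lines for male and full lines for female libraries. For Manf, Sdf2l1, Creld2 and Xbp1 the blue lines go up and the red lines go down, and for Dnajb9 all 4 lines go up, which on length-corrected RPM does not hold for Xbp1 or for Dnajb9 in α7G.

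The largest share of members with a low unadjusted p was in the comparison of female with male libraries, in which genotype and exposure were balanced. Again no member passed the adjusted threshold (0.0278% of genes did) in edgeR or in DESeq2, and 9 of 29 had an unadjusted p under 0.05 (21.9% of genes did), 8 of them higher in females. These were the ER genes Manf (0.63 ± 0.19), Creld2 (0.55 ± 0.14), Sdf2l1 (0.51 ± 0.16), Dnajb9 (0.49 ± 0.14), Dnajb11 (0.38 ± 0.12), Pdia3 (0.38 ± 0.15) and Pdia6 (0.34 ± 0.14), with Xbp1 (0.47 ± 0.12). The ligase Syvn1 was lower in females (-0.45 ± 0.19), and all 9 had an adjusted p of 0.228. Of the 14 ER folding genes 13 were above 0, with a median of 0.32 against -0.01 over all genes, and with the length offset all 14 were above 0 with a median of 0.23. The offset brought Manf to 0.27, Sdf2l1 to 0.13, Dnajb9 to 0.11 and Dnajb11 to 0.21, the last 3 with an unadjusted p above 0.05, while Hsp90b1 was at 0.42 ± 0.11 (unadjusted p = 0.00448) and Pdia4 at 0.36 ± 0.10 (unadjusted p = 0.00697, edgeR). By their means 8 of 9 alveolar type II and 5 of 5 club cell markers were also higher in females, with sums of 12190 to 30930 against 4796 to 22510 RPM and 45730 to 78680 against 18710 to 61710 RPM. So were 4 of 5 epithelial markers (1002 to 1584 against 1018 to 1886 RPM). Of the alveolar macrophage markers 10 of 15 were higher in females (19700 to 51250 against 14610 to 38660 RPM). Of the endothelial, mesenchymal and immediate early genes 0 were higher in females, and plasma cell markers summed to 527.1 to 5743 against 462.4 to 805.4 RPM. The part of these lists in the differences between the sexes was not tested.

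Pdia3 and Dnajb11 separated the sexes without overlap, which 0.723% of genes did upward, and no member did downward (4.8% of genes did). The disulphide isomerase Pdia3 was at 1075, 1119, 1122 and 1270 RPM in female and 920.5, 1065, 1014 and 987.2 RPM in male libraries, in the order α7G control, α7G CS, α7E260A:G control and α7E260A:G CS. Dnajb11 was at 154.6, 157.3, 139.5 and 153.4 RPM in female and 126.7, 133.0, 135.1 and 129.4 RPM in male libraries. The exact permutation test gave both its smallest value of 0.0286, with an adjusted p of 0.368 over the 7190 genes. Separation depended on the scale: with TMM-scaled RPM the separating members were Creld2, Dnajb11 and Pdia6, and with length-corrected RPM Hsp90b1 and Pdia4. The members' change between the sexes had an r of -0.76 with log2 CDS length (-0.68 over all genes), which the offset brought to 0.15.

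**Figure D5:**
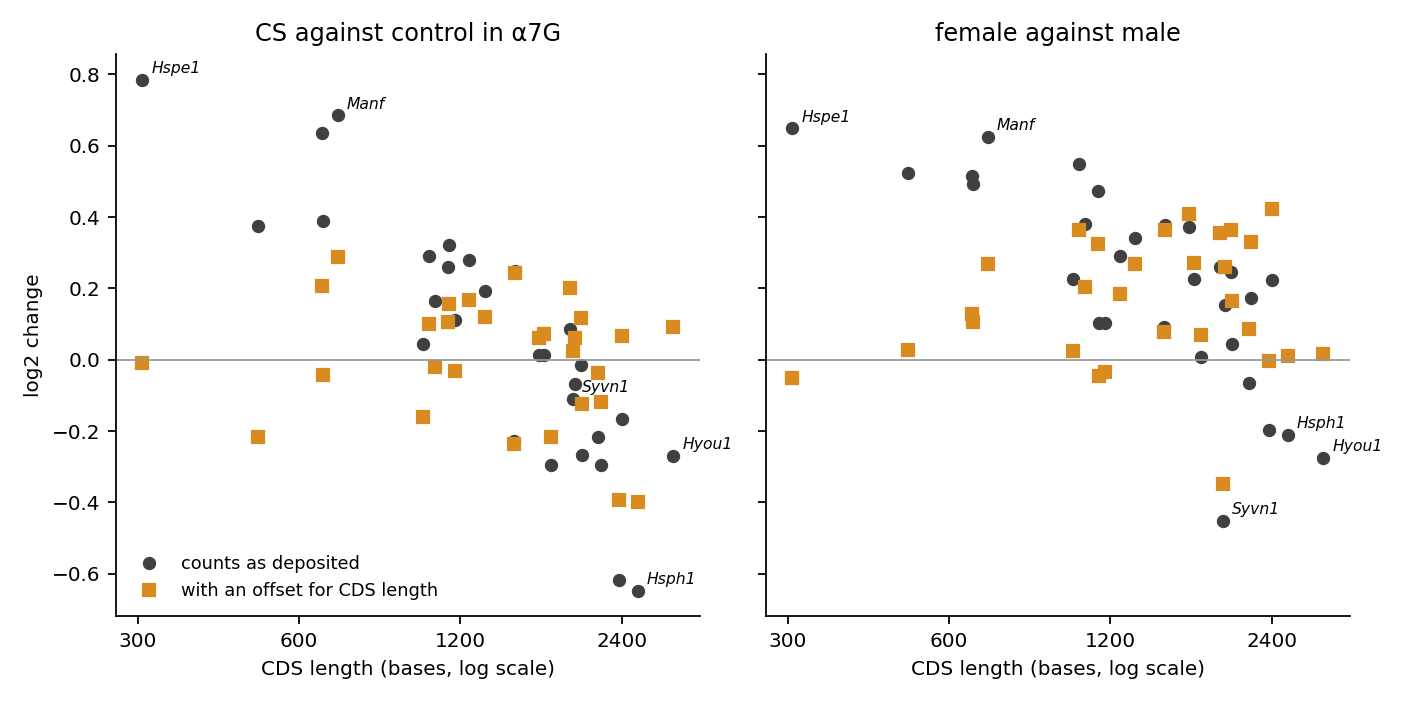
Log2 change (y axis) of the 29 members against CDS length (x axis, log scale) for CS in α7G (left) and for female against male libraries (right), from the counts as deposited (grey circles) and with the length offset (orange squares). Grey points fall from Hspe1 at 0.78 and 0.65 on the left of each panel towards Hyou1 on the right, and the orange points show no such fall.

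The other genes of these pathways were described by 6 lists holding 129 genes. In each of the 6 comparisons 0 genes of any list passed the adjusted threshold in edgeR. Between genotypes the median log2 change was 0.07 over 23 tested ER folding genes (16 above 0), 0.09 over 14 ERAD genes (10 above 0), 0.07 over 8 sensors and their regulators (6 above 0), 0.06 over 20 Atf4 targets (14 above 0), 0.08 over 7 mitochondrial genes (5 above 0) and -0.04 over 29 further cytosolic genes (8 above 0). Of the further cytosolic genes the lowest unadjusted p-values were those of Dnajb4 (-0.40 ± 0.19) and the Hsp90 partner Fkbp4 (-0.37 ± 0.17). The lowest unadjusted p of the 129 genes in this comparison was that of the serine synthesis enzyme Phgdh (0.59 ± 0.17, unadjusted p = 0.0113, adjusted p = 0.209, edgeR), followed among the sensor genes by the eIF2α phosphatase subunit Ppp1r15a (-0.60 ± 0.27) and the sensor Atf6 (0.39 ± 0.18). With CS in α7G, Atf6 had -0.89 ± 0.26 and the ERAD gene Edem3 -1.14 ± 0.33, both with an adjusted p of 0.589. Between the sexes all 8 tested sensor genes were lower in females, with a median of -0.43 and of -0.10 with the length offset.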

How the data were processed

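RNA-Seq reads of 8 libraries had been aligned by the authors with STAR to the mouse genome (mm9, NCBIM37) and deposited as raw counts per gene, made with htseq-count of HTSeq over coding exons (CDS) of GENCODE M1. Tool versions and the read length were not given in the sources used here. Counts were not normalised before deposit. RPM, library totals and all tests were computed here from these counts.

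A mean count of 200 or more was required, and immunoglobulin, histocompatibility, Gm and ribosomal subunit genes were left out by name, which left 7190. The main test was the quasi-likelihood test of edgeR 4.0.16 (TMM scaling, 4 groups, Benjamini-Hochberg adjustment over the 7190 genes, threshold 0.05) in R 4.3.3, so adjusted p-values are from edgeR unless another tool is named. Sex was compared within a model that also held the 4 groups. Single genes were compared on RPM with exact two-sided permutation tests over 70 arrangements. The CDS length offset was a lowess curve (span 0.667) of each library's log2 deviation on log2 CDS length. Separation between groups was counted on RPM with no test. Alternatives were DESeq2 1.42.0, library size scaling, filterByExpr (14140 genes), no filter (17542 genes), the length offset, sex as replicate block, each genotype alone and leaving out each library. The genotype by sex fit, the offset without the male α7E260A:G control and the rescaling of opposite changes were chosen after seeing the data.

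All 34 members are given. Of the 6 further pathway lists (cytosolic, mitochondrial, ER folding, sensors, ERAD and Atf4 targets), up to 2 genes with the lowest unadjusted p could be named where none passed, and of the 8 marker lists given the first 3 genes found, while a further list is not reported here. Members and lists were chosen with earlier results of these data known. Hspa14 occurs under 2 gene identifiers, and 4 listed symbols (Hm13, Mzb1, Plet1 and Spcs3) were not matched. Gene coordinates are mm9, and promoter sequences are RefSeq (GRCm38.p6). In simulated counts for the genotype comparison over 7190 genes, 200 of them changed, edgeR recovered 48.5% at a log2 change of 1 with 3 false calls and 100.0% at 2 with 6 false calls, and DESeq2 58.0% with 16 and 100.0% with 26. Whether these recovered shares and false calls hold for the measured libraries, whose length slopes ran from -0.243 to 0.409, was not tested. Floors of 3 counts cover counting error only. Python 3.11.15, pandas 2.3.3, scipy 1.17.1 and matplotlib 3.10.9 were used.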

Additional observations from a re-analysis of the deposited data

Results flagged for a closer look

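In 7 members the α7E260A:G library was above the α7G library in both male pairs and below it in both female pairs. The mean log2 ratio in females minus that in males was -3.26 for Hspa1a, -3.2 for Hspa1b, -2.02 for Hsph1, -1.02 for Hyou1, -0.78 for Syvn1, -0.69 for Dnajb1 and -0.59 for Hsp90ab1. For Hspa1a and Hspa1b, which had 15 to 144 counts per library, the difference was not tested, and for the other 5 the adjusted p of the difference was 0.231 or higher (edgeR). The pattern was shown by 16.2% of all genes tested. On TMM-scaled and on length-corrected RPM Hsph1 and Hsp90ab1 did not show it.

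In 4 members CS libraries were above controls in both α7G pairs and below them in both α7E260A:G pairs. The mean log2 ratio in α7E260A:G minus that in α7G was -0.81 for Manf, -0.74 for Sdf2l1, -0.44 for Xbp1 and -0.39 for Creld2, and the adjusted p of the interaction was 0.997 for each (edgeR). It was shown by 2.18% of all genes tested.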

How the results depend on the processing

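No member passed the adjusted threshold in any of the 6 comparisons under DESeq2, library size scaling, filterByExpr or no filter. In the genotype comparison 1 member (Dnajb9) passed with the CDS length offset, 1 (Dnajb9) with the offset and sex as replicate block, and 2 (Dnajb9 and Edem1) with the offset and without the male α7E260A:G control. With CS in α7G 1 (Sel1l) passed in the 4 libraries of that genotype alone. The log2 change of Hspe1 with CS in α7G went from 0.78 to -0.01 with the offset and -0.02 with the offset and block. Sex pairs the libraries only by label: the correlation of deviations between groups ran from -0.09 to 0.84, and the block alone gave no call.

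Leaving out each library in turn, the members' median log2 change ran from -0.06 (without the female α7G CS library) to 0.31 (without the female α7G control) for CS in α7G, from -0.23 (without the female α7E260A:G CS library) to 0.0 (without the female α7E260A:G control) for CS in α7E260A:G, and from -0.39 (without the female α7G control) to -0.05 (without the female α7E260A:G control) for the interaction. With library size scaling it was -0.01 for the interaction and 0.07 between the sexes, where that scaling moved the median of all genes to 0.16 and -0.16. Members separating the genotypes numbered 1 on TMM-scaled RPM, 3 on length-corrected RPM, and 0 to 2 without one library, and those separating CS from control 0 to 2 without one library. For these shifts the cause was not tested. Medians near 0 also had either sign with smaller shifts: over both genotypes the CS median of -0.04 ran from -0.13 to 0.09 without one library, and for CS in α7G it was -0.05 with library size scaling. The genotype median ran from 0.09 (without the male α7G control) to 0.25 (without the female α7G control). Of the single gene values recomputed, 231 kept direction and call, 5 passed the threshold where the main fit did not, and 2 changed direction. None of these genes passed in the main fit, so a kept call means only that the gene again did not pass.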
